A study of Homo sapiens with 14 samples.

Results

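BRG1 occupancy was compared between naïve and primed human embryonic stem cells (hESCs) from a pair of chromatin immunoprecipitation sequencing (ChIP-seq) peak lists. Both came from WIBR3, an established hESC line. The primed cells were kept in conventional medium and the naïve cells in 5i/L/A medium, a cocktail of kinase inhibitors with LIF and activin. Both were grown on mouse feeder cells and immunoprecipitated with the same BRG1 antibody. Each state had 1 BRG1 library, so no comparison below has a replicate check and no test was run. On chromosomes 1 to 22 and X of hg38 the naïve list held 57853 peaks and the primed list 15611, together 73464 of the 222964 peaks in the distinct lists of the series. A peak counted as shared when at least 25% of it, or of a peak it overlapped in the other list, was covered. By this rule 47803 peaks were naïve-only, 5282 were primed-only, and 10050 naïve and 10329 primed peaks were shared.

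BRG1 (SMARCA4) is an ATPase of the BAF complex, the mammalian SWI/SNF remodeller, which uses ATP to slide or evict nucleosomes and so exposes promoters and enhancers. BRM (SMARCA2) is the alternative ATPase of the same complex, and BAF155 (SMARCC1) is a scaffold subunit found with either. Naïve hESCs resemble the preimplantation epiblast and depend on factors of the KLF and TFAP2 families, whereas primed hESCs resemble the postimplantation epiblast and depend on FGF and activin signalling.

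Sequences at the midpoints of state-specific and shared peaks are shown first, as examples of the letters counted further on. Most of those shown hold letters, so they do not give how often letters occur. Other windows were drawn but are not shown. Those near SV2B, CRABP2, TAFA4, KLF17 and SUSD2 held none of the letters. Those near DNMT3L and ZIC2, the latter primed-only, held TFAP2 letters, and that near DPPA5 held NRF1 letters. The 120 bases around the midpoint of 8 peaks are given from the plus strand of hg38, with the consensus letters searched for in capitals. The naïve-only peaks 2.05 kb from a TTLL11 start site, between genes, and in an intron of RBFOX3, of authors' fold 7.35 and 7.17 over input, hold GCTGTCC, the core of the element bound by the repressor REST, and RBFOX3 also holds KLF letters. The naïve-only promoter peak near FHAD1, of fold 7.13, holds none of the letters.
TTLL11, chr9:122095599-122095718: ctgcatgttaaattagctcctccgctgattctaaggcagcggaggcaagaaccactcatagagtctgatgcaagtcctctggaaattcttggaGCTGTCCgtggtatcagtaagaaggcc
RBFOX3, chr17:79325804-79325923: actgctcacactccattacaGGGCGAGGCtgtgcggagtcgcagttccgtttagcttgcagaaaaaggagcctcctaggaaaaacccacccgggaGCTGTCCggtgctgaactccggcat
FHAD1, chr1:15343901-15344020: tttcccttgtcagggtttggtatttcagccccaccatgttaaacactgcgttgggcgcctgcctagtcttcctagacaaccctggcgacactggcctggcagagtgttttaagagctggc
The primed-only peaks between genes at 17.4 kb from EPHA2 and in an intron near UBP1, of fold 6.26 and 6.22, hold SOX letters (ACAATG) and ZIC letters (CCTGCTG). In EPHA2 the ZIC letters overlap CTCF letters read on the other strand, and NFY letters precede them. The primed-only peak of fold 3.12 at 9.26 kb from a start site of OTX2 holds AP-1 letters.
EPHA2, chr1:16116078-16116197: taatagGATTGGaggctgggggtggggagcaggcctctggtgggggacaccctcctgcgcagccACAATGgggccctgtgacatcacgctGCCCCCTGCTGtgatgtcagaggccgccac
UBP1, chr3:33426200-33426319: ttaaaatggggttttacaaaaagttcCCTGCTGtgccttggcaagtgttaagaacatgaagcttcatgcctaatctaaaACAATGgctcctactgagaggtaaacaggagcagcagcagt
OTX2, chr14:56796330-56796449: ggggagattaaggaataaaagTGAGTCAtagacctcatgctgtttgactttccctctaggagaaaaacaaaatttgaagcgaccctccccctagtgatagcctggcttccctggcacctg
The naïve-only peak of fold 4.81 in an intron of TFCP2L1 holds TEAD letters. The shared peak in an intron of KCNJ6, of fold 8.86 in the naïve list and 7.16 in the primed list, holds ETS letters.
TFCP2L1, chr2:121273162-121273281: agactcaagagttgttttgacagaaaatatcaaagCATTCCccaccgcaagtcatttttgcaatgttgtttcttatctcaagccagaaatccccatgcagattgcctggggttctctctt
KCNJ6, chr21:37914294-37914413: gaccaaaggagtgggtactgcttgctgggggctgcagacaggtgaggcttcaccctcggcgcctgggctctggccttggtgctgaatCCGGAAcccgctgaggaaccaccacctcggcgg

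Most naïve BRG1 peaks had no primed counterpart, whereas most primed peaks had a naïve one. Shared peaks made up 17.4% of the naïve list (10050 of 57853, exact Clopper-Pearson 95% interval 17.1% to 17.7%) and 66.2% of the primed list (10329 of 15611, 65.4% to 66.9%). These and all intervals below cover counting error only. A further 225 naïve and 238 primed peaks touched a peak of the other list without meeting the rule. The lists are unequal in length, and the shares depend on that. When the naïve list was cut to the 15611 peaks of highest −log10 q, 29.3% of naïve and 30.4% of primed peaks were shared. At an authors' fold of at least 4 in both lists, 27.4% of 2927 naïve and 23.8% of 3383 primed peaks were shared. Here and below, classes were assigned again after each cut. A state-specific peak of a cut list can therefore have a partner in the other whole list that the cut removed. With equal lists the primed-only class grew from 5282 to 10873 peaks. The study's quality table gives the primed BRG1 library more non-redundant mapped reads than the naïve library, and the part of depth in the lengths of the lists was not tested. A site without a peak fell short of the peak caller's threshold, and a site occupied in few cells and a site weakly occupied in all cells cannot be told apart.

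Shared BRG1 peaks were wider than state-specific ones in each list. The median width was 786 bp for shared peaks of the naïve list (quartiles 433 and 1303 bp) against 421 bp for naïve-only peaks (259 and 717 bp). In the primed list it was 377 bp for shared peaks (223 and 635 bp) against 263 bp for primed-only peaks (182 and 419 bp). Wider peaks have more bases that can overlap, and sharing rose with width. It went from 7.11% of naïve peaks under 300 bp to 48.7% of those of at least 2 kb, and from 57.0% to 78 of 78 in the primed list. The 9672 pairs with a single partner on each side show the same site in both states. The naïve peak was the wider in 81.5% of these pairs and held the primed peak whole in 56.6%. Their median widths were 766 bp in the naïve and 374 bp in the primed list, and their midpoints lay a median of 131 bp apart. Authors' folds, which come from separate peak calls against separate inputs, had medians of 3.05 and 3.55 in the naïve and primed peaks of these pairs. Across the pairs, which are not replicates, the folds of both lists had a Spearman rho of 0.33 and the widths 0.38.

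Sharing rose with peak strength in the naïve list and much less in the primed list. From the lowest to the highest decile of −log10 q it went from 3.84% to 36.6% of naïve peaks, rising at each step. In the primed list it lay between 60.4% and 68.4% in the lower deciles and reached 78.7% in the highest. The strongest peaks of both lists were mostly shared, with 341 of the 500 naïve peaks of highest fold (68.2%) and 460 of the 500 such primed peaks (92%).

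**Figure D1:**
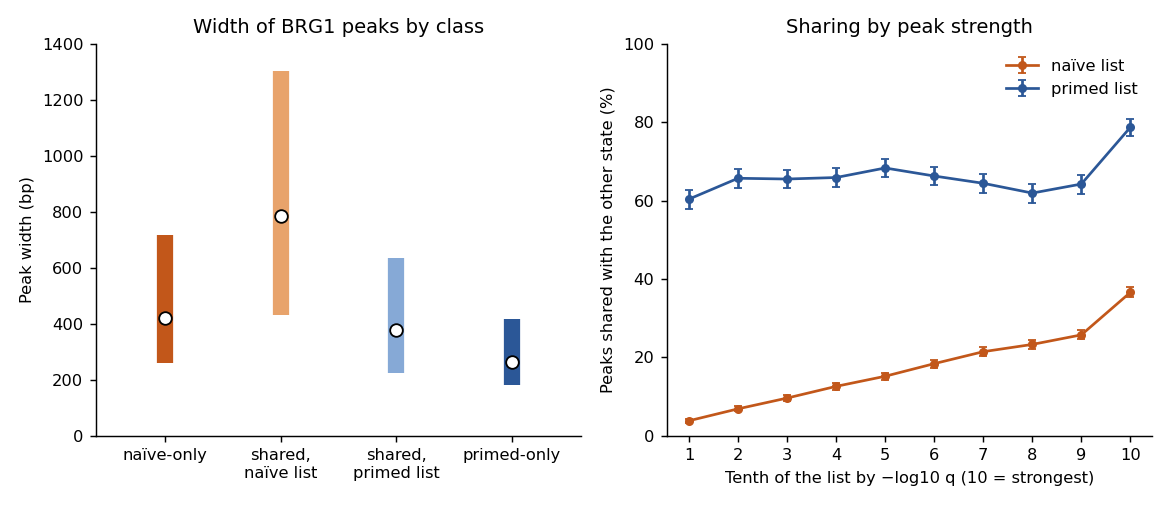
Left, peak width in bp (bars from the lower to the upper quartile, white point at the median) for the 4 classes of BRG1 peaks. Right, share of peaks shared with the other state (%, with exact 95% intervals) by decile of each list ordered by −log10 q. Shared naïve peaks are the widest class, and sharing climbs from 3.84% to 36.6% along the naïve list while the primed list stays above 60%.

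In the whole lists, shared BRG1 peaks were mostly at promoters, and peaks of either state alone were mostly in introns and between genes. A promoter peak had its midpoint within 1 kb of an annotated transcription start site (TSS). Promoters held 61.7% of shared naïve peaks (60.7% to 62.6%) and 61.9% of shared primed peaks, but 25.9% of naïve-only peaks (25.5% to 26.3%) and 26.1% of those found in primed cells alone (24.9% to 27.3%). In the naïve-only class 40.3% of peaks were intronic, in the primed-only class 45.9%, and among shared naïve peaks 20.7%. Intergenic sequence held 29.2%, 24.6% and 15.3%, respectively. The median distance to the nearest TSS was 5.01 kb for naïve-only, 6.58 kb for primed-only and 0.348 kb for shared naïve peaks. Primed-only peaks lay far from genes more often than naïve-only ones did, with 23.6% (22.5% to 24.8%) at 20 to 100 kb from a TSS against 16.7% (16.4% to 17.1%). Read from the position, 33.3% of naïve promoter peaks were shared against 9.72% of naïve intron peaks. Among naïve peaks under 500 bp these shares were 16.9% and 8.11%, so part of the gap went with width. In the primed list 82.2% of promoter peaks and 46.6% of intron peaks were shared. With the naïve list cut to equal length, the promoter share was 48.4% for primed-only, 23.5% for naïve-only and 52.3% for shared naïve peaks. The primed-only promoter share was 28.4% at a fold of at least 4 and 28.5% at a −log10 q of at least 2 in both lists, near the 26.1% of the whole lists. It was 39.2% and 46.6% where 25% and 50% of both peaks had to be covered, and 39.2% with peaks set to 500 bp. At a fold of at least 4 the promoter share of shared naïve peaks fell to 31.9%, so most of them then lay away from promoters.

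**Figure D2:**
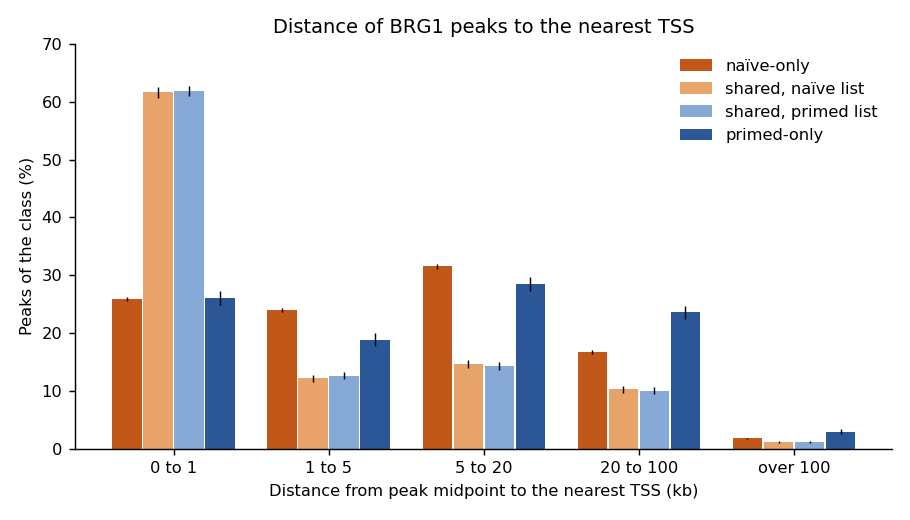
Share of each class of BRG1 peaks (%, with exact 95% intervals) by distance from the peak midpoint to the nearest TSS in kb. Both shared classes pass 61% in the nearest bin, where naïve-only and primed-only peaks are at 25.9% and 26.1%, and primed-only peaks stand above the others beyond 20 kb.

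Promoters of the primed list were its weaker peaks. In the lowest 3 deciles of −log10 q, 60.8%, 61.0% and 61.3% of primed peaks were at promoters, and in the highest decile 26.3% were. In the naïve list the promoter share went from 20.9% in the lowest decile to 39.3% in decile 7 and 26.4% in the highest decile. Peaks over promoters were also wider, with medians of 968.5 bp for shared naïve promoter peaks and 500 bp for shared naïve peaks elsewhere.

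Chromosome 19 carried the largest excess of naïve BRG1 peaks among the chromosomes used. It held 4236 naïve peaks (72.3 per Mb) and 484 primed peaks (8.26 per Mb), a ratio of 8.75. Chromosome 17 followed with 5.01, and the lowest ratios were 2.74 on chromosome 5 and 2.90 on X. On chromosome 19, 83.3% of primed peaks (79.6% to 86.5%) but 9.28% of naïve peaks were shared. On X 52.3% of primed peaks (48.1% to 56.5%) were shared. With lists of equal length the ratio was 2.302 on chromosome 19, 0.744 on chromosome 5 and 0.672 on X, so chromosome 19 stayed at the top.

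The other BAF lists were read at the BRG1 sites by the same overlap rule. BAF155 accompanied nearly all primed BRG1 peaks. Of primed-only BRG1 peaks 97.4% met a primed BAF155 peak, and of naïve-only peaks 67.4% met a naïve one. This gap was smaller in the cut lists. With lists of equal length the shares were 98.3% and 91.1%, and at a fold of at least 4 they were 99.6% and 94.2%. Both cuts keep the stronger naïve peaks, so list length and peak strength cannot be told apart here. The BAF155 peak of the other state was met by 18.2% of primed-only and 31.7% of naïve-only BRG1 peaks. This order turned with lists of equal length, at 51.9% and 39.9%, and at a fold of at least 4, at 59.4% and 48.1%. In those cuts the primed-only class also holds peaks whose naïve BRG1 partner was cut away. Shared naïve peaks met naïve BAF155 in 92.3% and primed BAF155 in 99.5% of cases. Naïve-only peaks with BAF155 in both states (12195 peaks, 25.5%) were at promoters in 50.9%, whereas those with BAF155 in the naïve state alone (20035 peaks, 41.9%) were at promoters in 15.4%. A further 26.4% of naïve-only peaks met no BAF155 peak, and these were narrow, with a median of 299 bp. In the primed-only class 79.6% met BAF155 in the primed state alone. The primed BRM list held 167 peaks and is not used for shares. Naïve BRM was met by 44.5% of shared naïve, 21.5% of naïve-only and 1.61% of primed-only peaks. These shares rose to 69.8%, 51.3% and 10.5% with equal lists and to 95.01%, 69.7% and 28.5% at a fold of at least 4, with the order of the classes kept.

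SOX2, a core pluripotency factor, was called at primed-only BRG1 sites more often than at naïve-only ones. Away from promoters, a primed SOX2 peak was met by 45.8% of primed-only (44.2% to 47.4%), 36.1% of shared naïve and 3.10% of naïve-only BRG1 peaks. At promoters these shares were 16.4%, 7.35% and 2.36%. A naïve SOX2 peak was met by 12.8% of shared naïve, 2.88% of naïve-only and 0.589% of primed-only peaks away from promoters. The naïve SOX2 list is the shorter, with 1940 peaks against 9290, which limits its shares. Over all positions, cutting the naïve BRG1 list to equal length moved the share of primed-only peaks with primed SOX2 from 38.1% to 26.5% and that of naïve-only peaks from 2.90% to 4.45%. At a fold of at least 4 these were 42.0% and 5.60%, and shared naïve peaks went from 18.3% to 7.48%. Naïve SOX2 was met by 5.80% of shared naïve, 2.33% of naïve-only and 0.492% of primed-only peaks over all positions. Equal lists gave 9.38%, 6.35% and 1.55%. This order turned at a fold of at least 4, with 3.62%, 4.33% and 6.05%. The primed-only class then also holds peaks whose naïve BRG1 partner had a fold below 4.

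Base composition separated the classes in the 200 bp around the midpoint. Median GC content was 65.5% in shared naïve peaks, 52% in naïve-only and 48% in primed-only peaks. A window with at least 50% GC and a ratio of observed to expected CpG of at least 0.6, a loose sign of a CpG island, was found in 57.3% of shared naïve, 21.0% of naïve-only and 17.6% of primed-only peaks. Away from promoters it was found in 17.5%, 9.50% and 5.07%. At promoters, 82.0% of shared naïve peaks had such a window against 53.8% of naïve-only and 53.2% of primed-only peaks.

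The consensus letters of transcription factor families differed between naïve-only and primed-only BRG1 peaks away from promoters. The letters were SOX ACAAAG or ACAATG, ZIC CCTGCTG, AP-1 TGANTCA, TEAD GGAATG, KLF GGGNGNGGC, TFAP2 GCCNNNGGC, OCT ATGCAAAT, CTCF AGGGGGC, ETS CCGGAA, NFY CCAATC, NRF1 GCGCATGC and REST GCTGTCC, each on both strands and any overlap allowed. A match is a description of the letters and not a bound site. SOX letters stood in 43.4% of primed-only windows (41.8% to 45.0%) against 25.7% of windows 2 kb to either side. In naïve-only peaks they stood in 23.8% against 22.3%. ZIC letters stood in 19.2% of primed-only windows and 4.70% of their flanks, and in 7.80% and 4.98% for naïve-only peaks. AP-1 letters stood in 16.6% of primed-only windows against 6.36% in flanks, and in 6.82% against 5.62% for naïve-only peaks. For TEAD the primed-only windows were at 22.1% over 11.4% in flanks, and the naïve-only windows at 14.4% over 10.5%.

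KLF and TFAP2 letters went the other way. KLF letters stood in 13.1% of naïve-only windows (12.8% to 13.5%) over 4.14% in flanks, and in 4.82% of primed-only windows (4.17% to 5.54%) over 2.97%. TFAP2 letters stood in 11.2% and 6.66% of these windows, but that gap depended on base composition. It was 7.25% against 4.00% in peaks of 40% to 50% GC and 11.6% against 11.01% in those of 50% to 60%, where the intervals overlapped. OCT letters, the octamer read by POU5F1, were above flanks in both classes, at 3.54% over 1.39% in naïve-only and 4.92% over 1.59% in primed-only peaks. Shared naïve peaks lay between the classes for SOX (27.7%), ZIC (10.0%), AP-1 (9.22%) and TEAD (16.2%). For KLF (12.9%) they were near naïve-only peaks, and for TFAP2 (12.9%) above them, without regard to GC content. Among peaks of 40% to 50% GC, however, shared naïve peaks lay between the classes for KLF (4.06%) and TFAP2 (5.78%) too. The letters follow base composition in part, so peaks were also compared within bands of GC content. Among peaks of 40% to 50% GC, SOX letters were present at 47.5% of the 1774 primed-only peaks and at 30.3% of the 13245 naïve-only ones, ZIC letters in 19.5% and 5.00%, AP-1 letters in 17.3% and 7.91%, and KLF letters in 1.75% and 6.84%. Cutting the naïve list to equal length narrowed the gaps and kept each direction, with SOX letters at 39.6% and 25.2%, ZIC at 17.4% and 8.09%, AP-1 at 15.2% and 7.36%, and KLF at 7.81% and 13.7% of primed-only and naïve-only windows, respectively.

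**Figure D3:**
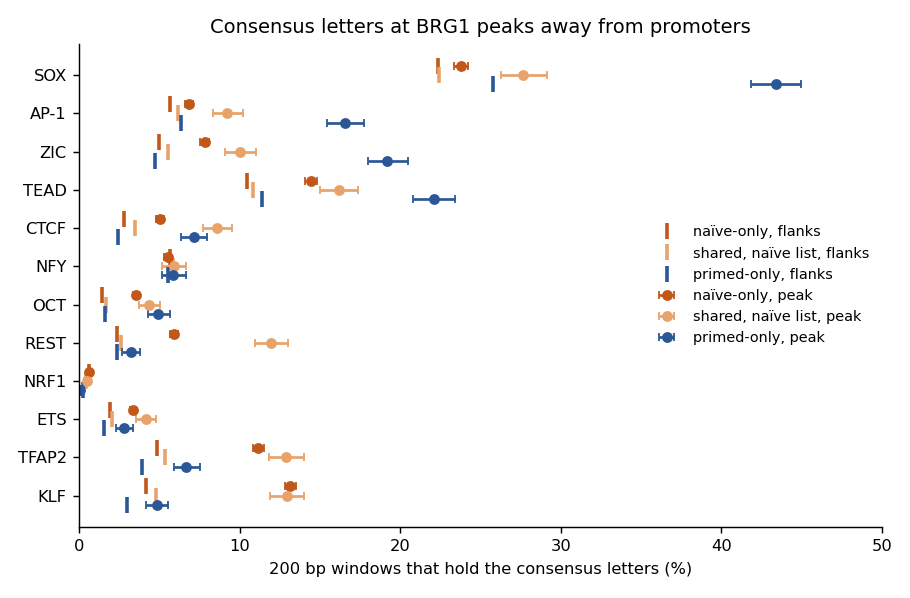
Share of 200 bp windows (%) holding the consensus letters of each family at BRG1 peaks away from promoters (points, with exact 95% intervals) and 2 kb to either side (ticks), by class. Primed-only points lie right of the others for SOX, AP-1, ZIC and TEAD, and left of them for KLF and TFAP2.

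The strongest BRG1 peaks of both states carried REST letters. REST silences neuronal genes outside the nervous system through a long element of which GCTGTCC is a core. These letters were added after the sequences above were read, so they are an observation and were not among the planned families. They stood in 18.0% of the decile of naïve peaks with the highest fold (17.03% to 19.02%) and in 27.5% of that decile of primed peaks (25.3% to 29.8%). In the lowest deciles they stood in 3.80% and 4.48%, and in the flanks of the highest deciles in 2.67% and 3.01%. Among the 500 peaks of highest fold, 211 naïve (42.2%) and 228 primed (45.6%) windows held them. A stricter form, with GGT following 2 or 3 bases on, stood in 112 of these naïve and 143 of these primed windows, and in 1 of 999 and 1 of 1000 flanks. Of the 112, 92 were shared peaks, and of the 143 all were. By class, the stricter form stood in 2.98% of shared naïve windows, 0.741% of naïve-only windows and 8 of 5282 primed-only windows (0.151%).

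**Figure D4:**
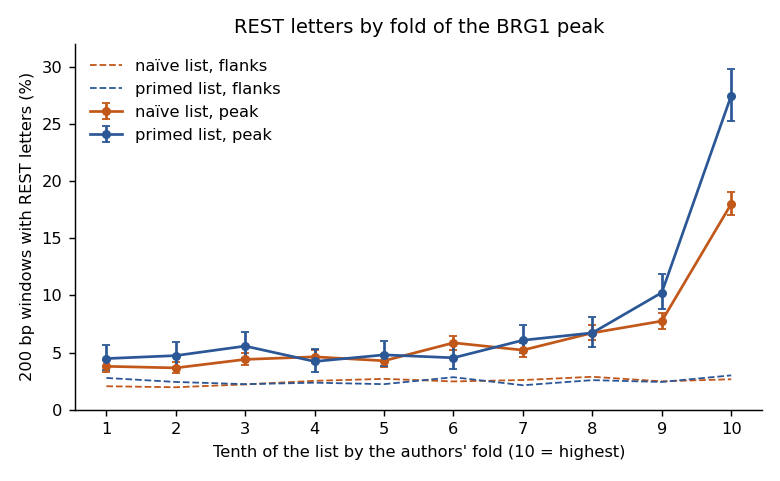
Share of 200 bp windows (%) with REST letters by decile of each BRG1 list ordered by the authors' fold (points, with exact 95% intervals) and 2 kb to either side (dashed lines). Both lists stay below 11% up to the last but one decile and reach 18.0% and 27.5% in the highest decile, while the flanks stay near 2 to 3%.

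The peaks of highest fold within 20 kb of a protein-coding TSS, chromosome 8 left out, were then listed, 8 in each class. Shared peaks were ordered by the naïve fold. The highest folds of the whole classes, 10.1 for naïve-only and 9.37 for primed-only peaks, belong to peaks outside these limits. The naïve-only ones lay near DNAJA3, a mitochondrial co-chaperone, TTLL11, RBFOX3, which encodes the neuronal nuclear antigen NeuN, FHAD1, MOSPD1, NIM1K, WRAP73 and ACSM3, with folds from 8.11 to 6.66. All 8 met naïve BAF155 and naïve BRM, and 6 of them, other than MOSPD1 and WRAP73, also met primed BAF155 without a primed BRG1 peak. None met a SOX2 peak. REST letters stood in 4 of the 8 windows, at TTLL11, RBFOX3, MOSPD1 and NIM1K. These letters were added after sequences of the named peaks were read, so this count is not independent of that choice.

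The primed-only ones lay near EPHA2, an ephrin receptor, UBP1, SV2B, a synaptic vesicle protein, PTPRR, CDC42EP3, PKDCC, NR6A1, a nuclear receptor that represses POU5F1 during differentiation, and MYO5A, with folds from 6.26 to 5.58. All 8 met primed BAF155, and 6, other than SV2B and PTPRR, met primed SOX2. Naïve BAF155 was met at PTPRR alone and naïve BRM at MYO5A alone. None was at a promoter, with 6 in introns and 2 between genes. SOX letters stood in 5 of the 8 windows, those at EPHA2, UBP1, CDC42EP3, NR6A1 and MYO5A, and CDC42EP3 and MYO5A held AP-1 and TEAD letters as well. The shared ones lay near S100A7A, CRABP2, a retinoic acid carrier, KCNJ6, a potassium channel, TAFA4, ENSG00000270299, CLEC3A, CXXC5 and CSF1. Their folds were 8.38 to 10.1 in the naïve and 5.30 to 11.99 in the primed list, and all met BAF155 of both states and naïve BRM.

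At the level of genes, 67% of the 19970 protein-coding genes had a naïve BRG1 peak within 1 kb of a TSS and 33.9% had a primed one. For genes, here and below, a peak counted when any part of it reached within 1 kb of a TSS, wherever its midpoint lay. A wide peak can reach a TSS more readily than a narrow one. Both lists reached 32.1% of genes (6402), the naïve list alone 35% (6982) and the primed list alone 1.82% (363). With every peak set to 500 bp these counts were 6391, 6930 and 399. The split between the states depends on how many naïve peaks are kept. Cut to equal length, the naïve list alone reached 1701 genes, both lists 2722 and the primed list alone 4043, so the order of the state-specific counts turned. The shares with equal lists were 8.52%, 13.6% and 20.2%, with 57.6% in neither, and each gene list below is given with both splits. By the study's rule, which assigns a peak to the nearest TSS under 20 kb, 63.7% of genes were targets of a naïve-only, 31.3% of a shared and 11.7% of a primed-only peak. A gene can be a target of several classes.

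Naïve pluripotency genes carried naïve BRG1 peaks. Of 20 such genes, 14 had a promoter peak in the naïve list alone, 5 in both, 0 in the primed list alone and 1 in neither. These were 70%, 25%, 0% and 5%, where all genes had 35%, 32.1%, 1.82% and 31.2%. With equal lists the counts were 4, 5, 0 and 11 (20%, 25%, 0% and 55%). All genes then had 8.52%, 13.6%, 20.2% and 57.6%. The naïve pluripotency genes were targets of 86 naïve-only and 1 primed-only peaks, where all genes together had 10.7 naïve-only peaks for each primed-only one. Genes with the naïve list alone included KLF17, a factor of the preimplantation epiblast, DPPA3 and DPPA5, DNMT3L, a cofactor of de novo DNA methylation, and SUSD2, a surface marker. KLF4, KLF5, TFCP2L1, TFAP2C and SMARCA2, the gene of BRM, had promoter peaks in both lists. HORMAD1 had none in either.

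Primed pluripotency genes had BRG1 promoter peaks in the naïve list alone in 2 of 20, in both in 14, in the primed list alone in 2 (THY1 and PTPRZ1) and in neither in 2. These were 10%, 70%, 10% and 10%, where all genes had 35%, 32.1%, 1.82% and 31.2%. With equal lists the counts were 0, 5, 11 and 4 (0%, 25%, 55% and 20%). All genes then had 8.52%, 13.6%, 20.2% and 57.6%. Of the primed pluripotency genes, 13 of 20 (65%) were targets of a primed-only peak, where all genes had 11.7%. SFRP2, a WNT inhibitor, DUSP6, an ERK phosphatase, and OTX2, a homeobox factor of the postimplantation epiblast, had peaks in both lists. Core pluripotency genes had promoter peaks in the naïve list alone in 4 of 18 (22.2%, all genes 35%) and in both in 14 (77.8%, all genes 32.1%). With equal lists these were 2 and 10 (11.1% and 55.6%, all genes 8.52% and 13.6%). A primed peak alone was then found at 4 (22.2%, near the 20.2% of all genes). In the whole lists, the genes with the naïve list alone were POU5F1, UTF1, ZFP42 and ESRRB. At POU5F1, however, the naïve peak at 0.684 kb from a TSS was shared, and its primed partner did not reach within 1 kb of a POU5F1 TSS. ESRRB, an orphan nuclear receptor, had 10 naïve-only target peaks with folds from 2.71 to 3.74 and 0 shared or primed-only ones. LIN28B, an inhibitor of let-7 processing, had 3 primed-only peaks beside 2 naïve-only and 2 shared ones.

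Of 22 neuroectoderm genes 14 (63.6%, all genes 35%) had a promoter peak in the naïve list alone, among them PAX6, SOX1, SOX3, NES and LHX2, and 5 (22.7%, all genes 32.1%) in both. With equal lists these were 2 and 3 (9.09% and 13.6%, near the 8.52% and 13.6% of all genes). A primed peak alone was then found at 2 (9.09%, all genes 20.2%), and 15 had none. Endoderm genes had promoter peaks in the naïve list alone in 7 of 18 and in both in 7 (each 38.9%, near the 35% and 32.1% of all genes). In the primed list alone they had them in 2 (11.1%, all genes 1.82%), which were AFP and CER1, a secreted NODAL antagonist. Equal lists gave 2, 4 and 5 (11.1%, 22.2% and 27.8%, all genes 8.52%, 13.6% and 20.2%). Trophectoderm genes had them in the naïve list alone in 6 of 18 (33.3%, like the 35% of all genes), GATA2 and HAND1 included. In both lists they had them in 9 (50%, all genes 32.1%), TEAD4, CDX2 and GATA3 included. Equal lists gave 2 and 4, with 5 in the primed list alone, the same shares as for endoderm genes. Primitive streak and mesoderm genes had them in the naïve list alone in 9 of 20 (45%, all genes 35%) and in both in 8 (40%, all genes 32.1%). With equal lists these were 3 and 2 (15% and 10%), with 6 in the primed list alone (30%). Beside the 11.7% of all genes that were targets of a primed-only peak stood 11 of 22 neuroectoderm (50%), 9 of 18 endoderm (50%), 8 of 18 trophectoderm (44.4%) and 5 of 20 mesoderm genes (25%). This was not particular to lineage genes, as WNT signalling genes had 46.2% and core pluripotency genes 38.9%. As targets of a naïve-only peak the 4 lineage lists had 95.5%, 66.7%, 88.9% and 85%, respectively, where all genes had 63.7%. MEIS2 had 5 primed-only target peaks, ZEB2 had 4, and YAP1, the Hippo pathway coactivator, had 4 with folds from 3.08 to 4.43. Their naïve-only target peaks were 4, 1 and 1, respectively.

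In the whole lists, signalling genes had BRG1 at the promoter in both states in 17 of 22 genes of FGF and ERK signalling (77.3%), 13 of 17 of LIF and STAT3 signalling (76.5%), 13 of 20 of NODAL and activin signalling (65%) and 18 of 26 of WNT signalling (69.2%), where all genes had 32.1%. With equal lists the counts in both were 11, 9, 8 and 9 (50%, 52.9%, 40% and 34.6%, all genes 13.6%). Those in the primed list alone were then 6, 4, 6 and 10 (27.3%, 23.5%, 30% and 38.5%, all genes 20.2%). FGF4, a ligand made by the epiblast, had 9 naïve-only target peaks and a promoter peak in the naïve list alone, whereas FGF2 had 2 naïve-only and 2 primed-only peaks. GDF3, LEFTY1 and LEFTY2 of the NODAL list had naïve promoter peaks alone. Genes of BAF subunits had promoter peaks in both lists in 22 of 28 (78.6%), SMARCA4 and SMARCA2 among them. With equal lists they had them in both in 10 (35.7%, all genes 13.6%) and in the primed list alone in 13 (46.4%, all genes 20.2%). SMARCC1, the gene of BAF155, had one in the whole naïve list alone. DNA methylation and polycomb genes had them in both in 14 of 21 (66.7%). With equal lists these were 8 (38.1%), with 6 in the primed list alone (28.6%). Imprinted genes had them in the naïve list alone in 9 of 20 (45%), near the 35% of all genes. With equal lists they had them in the naïve list alone in 3, in both in 3 and in the primed list alone in 5. These were 15%, 15% and 25%, where all genes had 8.52%, 13.6% and 20.2%. Among the 9 were IGF2, DLK1, PEG3 and GNAS, which had 10 naïve-only target peaks.

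HOX genes pattern the body axis and are mostly silent in pluripotent cells. They had a promoter BRG1 peak in the naïve list alone in 33 of 39 (84.6%, all genes 35%), in neither list in 6, and in the primed list in 0. With equal lists these were 7 (17.9%, all genes 8.52%), 32 and 0, where all genes had 4043 of 19970 in the primed list alone. Over the 4 clusters the naïve list had 75 peaks of 158 to 2362 bp covering 48.7 kb, with folds from 2.45 to 4.34. HOXA on chromosome 7 had 15, HOXB on chromosome 17 had 27, HOXC on chromosome 12 had 14 and HOXD on chromosome 2 had 19. The primed list had 5 peaks covering 1.42 kb, 3 in HOXB and 2 in HOXD, and none of them within 1 kb of a HOX TSS. Of the 75 naïve BRG1 peaks, 51 met naïve BAF155 and 48 met primed BAF155, while 5 met the sharing rule with a primed BRG1 peak.

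Other large families were compared with all genes, of which 31.2% had a promoter peak in neither list. Of 400 olfactory receptor genes 97.3% had none, 10 had one in the naïve list alone and 1 in the primed list alone, and with equal lists 5 and 1. Ribosomal protein genes had one in the naïve list alone in 35 of 80 (43.75%), in both in 13 (16.25%) and in the primed list alone in 5 (6.25%). All genes had 35%, 32.1% and 1.82%. No promoter peak in either list was found at 33.8%. With equal lists the counts were 3, 1 and 17 (3.75%, 1.25% and 21.25%), where all genes had 8.52%, 13.6% and 20.2%. Histone genes of the replication-dependent clusters had one in the naïve list alone in 24 of 69 (34.8%, like the 35% of all genes) and in both in 5 (7.25%). In the primed list alone they had one in 3 (4.35%), and 53.6% had none. With equal lists the counts were 2, 0 and 8 (2.90%, 0% and 11.6%).

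Fibroblast genes were read because of the feeders. Of 18, 4 had a promoter peak in the naïve list alone, 4 in both (COL1A1, COL1A2, COL5A1 and S100A4), 2 in the primed list alone (THY1 and TAGLN) and 8 in neither, COL3A1, DCN and LUM among them. These were 22.2%, 22.2%, 11.1% and 44.4%, where all genes had 35%, 32.1%, 1.82% and 31.2%. With equal lists the counts were 0, 2, 4 and 12 (0%, 11.1%, 22.2% and 66.7%). All genes then had 8.52%, 13.6%, 20.2% and 57.6%. Of the 18, 7 (38.9%) were targets of a primed-only peak, where all genes had 11.7%. Reads from the mouse feeders, mapped to hg38, were not separated, and their part in these counts was not tested.

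Genes with a ZNF symbol, mostly zinc finger repressors, had a promoter peak in the naïve list alone in 265 of 476, in both in 93 and in the primed list alone in 6. These were 55.7%, 19.5% and 1.26%, where all genes had 35%, 32.1% and 1.82%. Equal lists gave 56, 37 and 62 (11.8%, 7.77% and 13.0%, all genes 8.52%, 13.6% and 20.2%). A naïve peak alone was found at 62.1% of 240 ZNF genes on chromosome 19 and 49.2% of 236 ZNF genes elsewhere, and at 51.1% of 1236 other genes on chromosome 19 and 33.3% of other genes elsewhere. With equal lists these shares were 13.8%, 9.75%, 17.1% and 7.85%, so other genes then passed ZNF genes on chromosome 19. A primed peak alone was then found at 5.83%, 20.3%, 8.82% and 21.2%. The ZNF genes of chromosome 19 were targets of 489 naïve-only and 3 primed-only peaks.

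**Figure D5:**
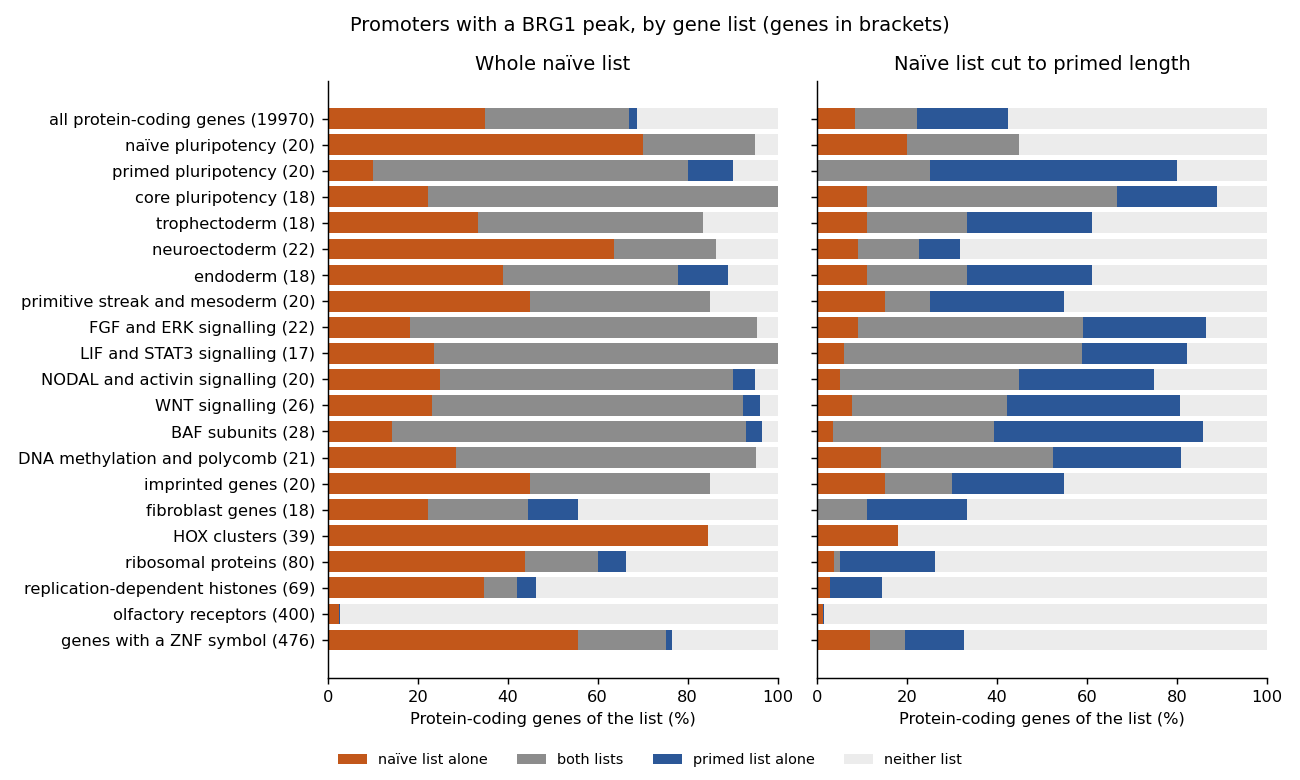
Share of the protein-coding genes of each list (%, gene numbers in brackets) with a BRG1 peak within 1 kb of a TSS in the naïve list alone, both lists, the primed list alone or neither, for the whole naïve list (left) and for the naïve list cut to 15611 peaks (right). HOX clusters show 33 of 39 and 7 of 39 in the naïve list alone and none in the primed list, while primed pluripotency genes move from 14 of 20 in both to 11 of 20 in the primed list alone.

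The marker genes of the states were examined peak by peak. KLF17 had 4 naïve peaks and 0 primed ones. The strongest, at chr1:44106715-44108252 in an intron by the annotation and 11.3 kb from the KLF17 TSS, was 1538 bp wide with fold 3.88 and met BAF155, BRM and SOX2 of the naïve state. DNMT3L had 5 naïve peaks and SUSD2 had 3, and neither had a primed one. The widest at DNMT3L was of 4843 bp, with its midpoint 1.18 kb from a TSS. DPPA5 had 4 naïve peaks, of which the one 5.36 kb from its TSS met the only primed peak. TFCP2L1 had 4 naïve peaks, and the shared one lay at its promoter. Among primed markers, THY1 had a primed-only promoter peak of 133 bp with fold 3.71 and a naïve-only peak 16.7 kb away. DUSP6 had a shared primed peak of 1936 bp where the naïve list had separate peaks of 256 and 343 bp. OTX2 had 4 peaks in each list, with a highest fold of 5.03 in the primed and 3.17 in the naïve list, and its strongest site met SOX2 of both states. SFRP2 had 2 naïve and 3 primed peaks, all shared. ZIC2 had 4 naïve and 3 primed peaks.

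The pluripotency genes of both states had BRG1 in both lists. POU5F1, which encodes OCT4, had a naïve peak of 3820 bp with fold 3.36 that overlapped a primed peak of 1656 bp with fold 3.68, and SOX2 of both states was met there. A peak of 867 bp at 0.222 kb from a POU5F1 TSS was naïve-only. NANOG had a naïve-only peak of 1958 bp with fold 3.25 that met naïve SOX2, and at its TSS a shared peak of 730 bp in the naïve and 145 bp in the primed list. SOX2 had 6 naïve and 5 primed peaks, among them a primed-only peak of 479 bp with fold 4.47 in an intron that met naïve BAF155 without a naïve BRG1 peak.

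The genes with the most naïve-only target peaks were ABR and RERE with 23 each, MRTFA, NXN and PRRC2B with 20 each, and CMIP, KIAA1217 and RBFOX3 with 19 each. The genes were 127 to 853 kb long, and all but RBFOX3 had promoter peaks in both lists. RBFOX3 also held the primed peak of highest fold in the whole list, 14.9, which was shared. The genes with the most primed-only peaks were TCF4, TIAM2 and ZNF608 with 6 each, and ADGRL2, ANK2, BMP7, CTIF and MEIS2 with 5 each. TIAM2 and CTIF had 12 and 11 naïve-only peaks as well, whereas ADGRL2 and BMP7 had 0. BMP7, a BMP ligand, had no naïve BRG1 peak by the target rule, and its 5 primed-only peaks had widths of 174 to 570 bp and folds of 3.50 to 4.23. All 5 met primed BAF155, 2 met primed SOX2 and 0 met naïve BAF155. TCF4, a basic helix-loop-helix factor, had 6 primed-only peaks with folds of 3.25 to 4.26, of which 4 were within 1 kb of its TSSs.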

How the data were processed

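Chromatin immunoprecipitation followed by sequencing was performed by the authors for BRG1, BAF155, BRM and SOX2 in naïve and primed WIBR3 hESCs, with 1 library per state for each BAF subunit. Per the labels and methods, reads were trimmed, aligned to hg38 with Bowtie2 2.3.4, cleared of duplicates with SAMtools 0.1.19 and used for MACS2 peak calls against input. FastQC 0.10.1 is named in the submitters' processing notes. The deposited lists give each peak's position, a score, the fold (a ratio) over input, and −log10 p and −log10 q values. They hold no read counts, so the depth behind a peak is unknown here and only counting intervals over peaks can be given.

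Peaks on chromosomes 1 to 22 and X were used, which left out 31 naïve and 0 primed BRG1 peaks. A pair was shared where at least 25% of either peak was covered. Position was taken from the peak midpoint and GENCODE 44, with promoters within 1 kb of a TSS and target genes by the nearest TSS under 20 kb. The promoter class of a gene instead counted any peak of which a part reached within 1 kb of one of its TSSs. Base composition and letters were read in 200 bp around the midpoint and 2 kb to either side. Shares carry exact Clopper-Pearson 95% intervals. No test was run, since each group has 1 library. SOX2 lists with identical coordinates within a state were counted once. Python 3.11.15, numpy 2.4.6, pandas 2.3.3, scipy 1.17.1 and samtools 1.23.1 were used, with matplotlib 3.10.9 for plots, and the overlap and letter routines were tested on simulated data. Named peaks were the 8 of highest fold in each class near a protein-coding gene, chromosome 8 left out, the 8 genes with the most naïve-only and the 8 with the most primed-only peaks, up to 6 examples of each gene list, and the state markers. A few further genes named beside their counts were chosen after their values were seen. The peak classes and gene lists were chosen with earlier results of these data known. The REST letters and the alternatives for letters, gene lists, other lists, chromosomes and ZNF genes were added after seeing the data.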

Additional observations from a re-analysis of the deposited data

How the results depend on the processing

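The values listed next were recomputed under those of 9 alternatives that apply to them, and 73 of the 94 recomputed values left the main value's interval or, for gene counts, a factor of 1.5. The alternative start sites were run for promoter shares alone, widths were not recomputed for peaks of set width, and TSS distances, base composition and shares by decile were not recomputed. Values are given in the order naïve share, primed share, promoter share of naïve-only, primed-only and shared naïve peaks, median width of the same classes in bp, genes with a promoter peak in the naïve list alone, both and the primed list alone, naïve-only peaks with primed BAF155 and primed-only peaks with naïve BAF155. Counting any overlap of 1 bp gave 17.8% and 67.7% shared, a primed-only promoter share of 24.1% and naïve BAF155 at 16.4% of primed-only peaks. Requiring 25% of both peaks gave 13.6% and 50.5%, 27.7%, 39.2% and 60.1%, 438, 257 and 657 bp, and 34.6% and 40.6%. Requiring 50% of both gave 7.47% and 27.7%, 30.06%, 46.6% and 58.0%, 455, 286 and 575.5 bp, and 38.9% and 56.1%. A fold of at least 4 gave 27.4% and 23.8%, 20.5%, 28.4% and 31.9%, 383, 282 and 414 bp, 374, 236 and 620 genes, and 48.1% and 59.4%. A −log10 q of at least 2 gave 15.1% and 56.1%, 31.8%, 28.5% and 53.2%, 494, 275 and 768 bp, 2756 genes in both and 615 in the primed list alone, and 43.9% and 31.3%. The naïve list cut to primed length gave 29.3% and 30.4%, 23.5%, 48.4% and 52.3%, 482 and 322 bp for naïve-only and primed-only peaks, 1701, 2722 and 4043 genes, and 39.9% and 51.9%. Peaks set to 500 bp gave 14.4% and 53.5%, 27.7%, 39.2% and 58.8%, and 38.4% of primed-only peaks with naïve BAF155. Start sites of protein-coding genes alone gave promoter shares of 20.0%, 21.0% and 56.3%, and a limit of 2 kb gave 33.7%, 33.3% and 66.3%.

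The promoter share of shared naïve peaks stayed above that of both state-specific classes under all 9 alternatives, and the primed share stayed above the naïve share in each overlap, threshold and length alternative except a fold of at least 4. Of 56 recomputed shares of KLF, SOX, AP-1 and ZIC letters 24 moved, and their directions between naïve-only and primed-only peaks held under the 7 alternatives run for them. The cause of the other moves was not tested. No paired analysis was possible because each BRG1 group has 1 library, and for the same reason no library could be left out. The soft-masked share of the windows is not used here.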
